A study of Mus musculus with 6 samples.

Results

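Dpyd encodes dihydropyrimidine dehydrogenase, the enzyme that opens the breakdown of the pyrimidine bases uracil and thymine. It is described here with the genes of the steps around it, in RNA sequencing libraries of mouse lumbar dorsal root ganglia, the clusters of sensory neuron cell bodies beside the spinal cord. The 7 genes are Dpyd, Dpys, Upb1, Upp1, Upp2, Tymp and Agxt2, found in the tables by NCBI gene identifier among 36528 listed genes. All 7 have a row in every library, and 6 passed the filter on low counts; Agxt2 did not. They were selected on the count of Dpyd, which stood out in the comparison of knockout with control animals, and on their place in its pathway. The differences of the 7 genes between the groups are therefore a description and carry no test.

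All animals were female, 12 to 18 weeks old and homozygous for a floxed Scn9a gene (Scn9a loxP/loxP in the labels), which encodes the sodium channel Nav1.7 of nociceptors. The 3 CreER-positive animals carried pCAAG.Cre.ER, a Cre recombinase fused to an oestrogen receptor domain, and the 3 controls were littermates without it. The title of the series calls the knockout global, and no treatment that activates the recombinase is given in the sources used here. Each library holds the 6 ganglia L4 to L6 of both sides of 1 mouse. Replicates are numbered 1 to 3 within each group only to name them. The labels tie no given control to a given CreER-positive animal. The floxed allele is common to both groups, so the comparison is of animals with and without the Cre transgene. No group that carried the transgene without a floxed gene was analysed here.

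Total counts ran from 40237131 to 63332040 per library. The 11 sensory neuron markers summed to between 10176 and 13683 CPM (counts scaled by library size with TMM factors) in every library, so the labelled tissue was present. CreER-positive replicate 3 stood apart, with the lowest neuron sum and the highest sums of macrophage (151 CPM against 77.1 to 103 elsewhere) and fibroblast and perineurium markers (1679 CPM against 978 to 1257). It was also the highest in blood (99.8 CPM against 51.0 to 59.9), endothelial (188 CPM against 121 to 144) and satellite glia markers (3580 CPM against 2808 to 3150). Control replicate 2 stood apart in skeletal muscle markers (129 CPM against 54.8 to 69.1). Pvalb alone gave 48.0 to 61.7 CPM of this sum across the libraries. Each of the other muscle markers was highest in control replicate 2, such as Myh1 at 10.6 CPM against 0.0738 to 0.190 elsewhere. Scn9a itself had 601 ± 39.9 CPM in controls and 586 ± 29.6 CPM in CreER-positive animals (SD, n = 3; log2 fold change -0.04, edgeR adjusted p 0.916). Its count is of the gene as a whole and does not check the deletion.

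In this pathway Dpyd reduces uracil or thymine with NADPH, Dpys (dihydropyrimidinase) opens the reduced ring, and Upb1 (beta-ureidopropionase) splits the open chain into an amino acid, ammonia and carbon dioxide. Uracil yields beta-alanine and thymine yields beta-aminoisobutyrate, which the mitochondrial aminotransferase Agxt2 can degrade further. The bases come from nucleosides: the uridine phosphorylases Upp1 and Upp2 release uracil, and the thymidine phosphorylase Tymp releases thymine. The full breakdown chain is best known from the liver, where the Dpyd enzyme also clears fluoropyrimidine drugs. In sensory ganglia the pathway has a neighbour in Mrgprd, a receptor of non-peptidergic nociceptors that beta-alanine activates.

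Upstream sequences of Dpyd and Upp2 are shown because the gene-level counts below cannot tell from which start the reads came. Dpyd has a single start in the RefSeq promoter table (GRCm38.p6), while Upp2 has a pair of starts 187.85 kb apart whose sequences differ in kind. Each run is the 250 bases before the start in that table, 5′ to 3′ on the plus strand. Outer and inner refer to the starts in that table. The gene spans given below begin earlier, at 118562109 for Dpyd and 58566317 for Upp2. The end of the Dpyd run therefore lies inside the Dpyd span, and both Upp2 runs lie wholly inside the Upp2 span. Capitals mark matches, on either strand, to the GC box (GGGCGG), the TATA box (TATAAA) or the CCAAT box (CCAAT).
Dpyd, chr3:118561930-118562179: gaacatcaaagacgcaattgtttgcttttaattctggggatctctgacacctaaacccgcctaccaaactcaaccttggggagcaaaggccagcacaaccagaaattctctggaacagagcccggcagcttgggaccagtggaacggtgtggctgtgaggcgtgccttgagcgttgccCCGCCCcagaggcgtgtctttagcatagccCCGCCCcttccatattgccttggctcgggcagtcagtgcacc
Upp2 outer start, chr2:58567084-58567333: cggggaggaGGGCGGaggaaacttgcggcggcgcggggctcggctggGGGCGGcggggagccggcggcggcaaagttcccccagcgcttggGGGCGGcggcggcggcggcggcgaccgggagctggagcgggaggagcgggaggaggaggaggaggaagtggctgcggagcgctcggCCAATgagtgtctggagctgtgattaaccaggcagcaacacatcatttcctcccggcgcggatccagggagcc
Upp2 inner start, chr2:58754934-58755183: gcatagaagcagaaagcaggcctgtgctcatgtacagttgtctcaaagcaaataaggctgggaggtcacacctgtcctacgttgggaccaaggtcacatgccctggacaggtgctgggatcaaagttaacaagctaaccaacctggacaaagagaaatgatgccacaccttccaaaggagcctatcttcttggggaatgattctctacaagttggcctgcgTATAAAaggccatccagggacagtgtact

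The Dpyd window held 2 GC boxes, both on the minus strand, at 72 to 67 and 42 to 37 bases before the start, and matched neither of the other motifs. The outer Upp2 window held 3 GC boxes and 1 CCAAT box, with 73.2% G or C. The inner Upp2 window had 49.2% G or C and a TATA box 29 to 24 bases before the start. Of 32851 upstream windows of this length in the table, 32.7% held a GC box, 12.4% a TATA box and 33.8% a CCAAT box, and the median G or C share was 52.4%. These matches describe the letters and say nothing about binding. Windows were listed for 6 of the 7 genes; of the others, Agxt2 had a TATA match in both of its windows, Upb1 and Tymp had 2 CCAAT matches each, and Upp1 had a GC box in 2 of 3 windows.

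Dpyd had the largest difference between the groups of the 6 tested genes. Its counts were 1194, 1764 and 1921 in control replicates 1 to 3 and 9037, 8734 and 5445 in CreER-positive replicates 1 to 3. On the CPM scale the controls had 29.4, 31.8 and 30.4 and the CreER-positive animals 151, 142 and 102. The control values lay close together, the lowest CreER-positive value was 3.21 times the highest control, so the groups did not overlap. Means were 30.5 ± 1.24 CPM and 132 ± 25.8 CPM (SD, n = 3). The fitted log2 fold change, CreER-positive over control, was 2.11 ± 0.13 (SE), a fold of 4.31 with a 95% interval from 3.53 to 5.27.

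The spread of Dpyd also differed, with a coefficient of variation of 4.08% in controls and 19.6% in CreER-positive animals. The lowest of the high values, 102 CPM, belonged to CreER-positive replicate 3, the library with the lowest neuron marker sum and the highest macrophage, fibroblast, blood, endothelial and satellite glia sums. The part of cell makeup in that value was not tested. Without this library the log2 fold change was 2.26, and without it and control replicate 2 it was 2.29. In a whole ganglion, fewer cells of a type and less RNA per cell cannot be told apart, and likewise for more.

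By size of fold, Dpyd ranked 18 among 22043 tested genes. The 17 genes above it include Cckbr, Lars2, Jarid2 and Cdk8, and small non-coding RNA genes such as Rn7sk and Rmrp. Among the 17468 tested genes whose mean reached 1 CPM, Dpyd ranked 15. Among those of them called higher it ranked 1. Dpyd was chosen on its difference in this comparison, so these ranks are a description and carry no test. Its mean level moved from a percentile of 67.2 among tested genes in controls to 92.4 in CreER-positive animals. Across the 6 libraries, the genes whose log2 CPM followed Dpyd most closely among 13525 other genes averaging at least 5 CPM were Steap3 (Pearson r 0.992), Esr1 (0.990), Cdk20 (0.987), a gene with no matched symbol (0.982) and Fkbp1b (0.982). All 5 share the group difference and the same 6 libraries with Dpyd, so these values describe the order and carry no p.

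Of these, Steap3, a metalloreductase gene of iron uptake, had 40.6, 43.1 and 44.1 CPM in controls and 62.1, 62.0 and 55.8 CPM in CreER-positive animals. As with Dpyd, its lowest CreER-positive value was in replicate 3. Its log2 fold change was 0.49 ± 0.06 (edgeR adjusted p 0.00638), and the call held under all 13 alternatives, with an adjusted p of up to 0.0492. The genes of this paragraph were picked by their likeness to Dpyd, which favours a group difference. Their adjusted p values are therefore no separate support. Esr1, oestrogen receptor alpha, rose by 1.56 ± 0.13 (0.00136), and its gene-level reads cannot be told apart from those of the receptor domain in the transgene. Fkbp1b, a calcium-channel-associated immunophilin gene, rose by 0.46 ± 0.06 (0.0101) and lost its call without control replicate 1 (0.0812) or 2 (0.0917), with a range from 6.13e-09 to 0.0917 over its alternatives. Cdk20, a cyclin-dependent kinase gene, was at the threshold, with a log2 fold change of 0.33 and an edgeR adjusted p of 0.0536. It passed with no count filter (0.0422), with a filter of 1 CPM in 3 libraries (0.0476), without CreER-positive replicate 3 (0.0320) and by DESeq2 (0.00867), and its range over the 13 alternatives was 0.00867 to 0.291.

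The next enzymes of the chain were present at low counts, with small differences. Dpys had 2.71, 2.92 and 3.02 CPM in controls and 2.55, 2.60 and 2.35 CPM in CreER-positive animals. Every CreER-positive value was below every control, by a small margin. The estimate on the log2 scale was -0.21 ± 0.12 (SE; 95% interval -0.48 to 0.06). Upb1 had 2.51, 2.47 and 3.54 CPM in controls and 2.70, 2.52 and 3.29 CPM in CreER-positive animals. The groups overlapped for Upb1. Its log2 fold change was -0.01 ± 0.18, and the 95% interval of the fold ran from 0.754 to 1.30.

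Agxt2 was at the limit of detection. Its counts were 2, 0 and 1 in controls and 0, 2 and 3 in CreER-positive animals. No library exceeded 3 counts, the level taken as the floor, so no fold is given. A count of 0 in control replicate 2 allows a level of up to 0.0542 CPM, by counting error alone. Transcripts of cells that carry the full pathway were scarce as well. The 10 hepatocyte markers summed to 2.31 to 2.78 CPM in controls and 1.98 to 2.36 CPM in CreER-positive animals, with Serpina1a at 0 in every library and albumin (Alb) at 1 or 2 counts. The 8 kidney tubule markers summed to 4.41 to 5.90 CPM, with Umod and Kap at 0.

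The nucleoside phosphorylases differed little between the groups. Upp2 was the most counted of them, with 47.2, 48.9 and 45.8 CPM in controls and 52.1, 45.3 and 46.4 CPM in CreER-positive animals. The groups overlapped, and the interval of the log2 fold change ran from -0.12 to 0.16. Upp1, the widely expressed uridine phosphorylase, had 3.59, 3.45 and 3.42 CPM in controls and 3.25, 3.21 and 4.0 CPM in CreER-positive animals. Replicate 3 was the highest and the other CreER-positive values were below every control. The log2 estimate was 0.00 ± 0.12 (interval -0.28 to 0.28). Without control replicate 2 and CreER-positive replicate 3 it was -0.12. The estimate for Upb1 was -0.23 without the same libraries and 0.19 without control replicate 3 alone.

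Tymp had 17.1, 17.2 and 18.6 CPM in controls and 20.3, 21.3 and 19.2 CPM in CreER-positive animals. Every CreER-positive value lay above every control, by a margin smaller than the spread within a group. The log2 fold change was 0.20 ± 0.07, a fold of 1.15 with an interval from 1.03 to 1.28. Tymp shares its locus on chromosome 15 with Sco2, a gene of cytochrome c oxidase assembly, 99.96% of whose span lies inside that of Tymp. Sco2 had 21.3 ± 1.35 CPM in controls and 24.2 ± 1.36 CPM in CreER-positive animals (log2 fold change 0.18, edgeR adjusted p 0.392). Ncaph2, a condensin subunit gene, covers 22.6% of the Tymp span (0.13, adjusted p 0.490). No strand setting is known, and the reads of the overlapping genes cannot be told apart.

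**Figure D1:**
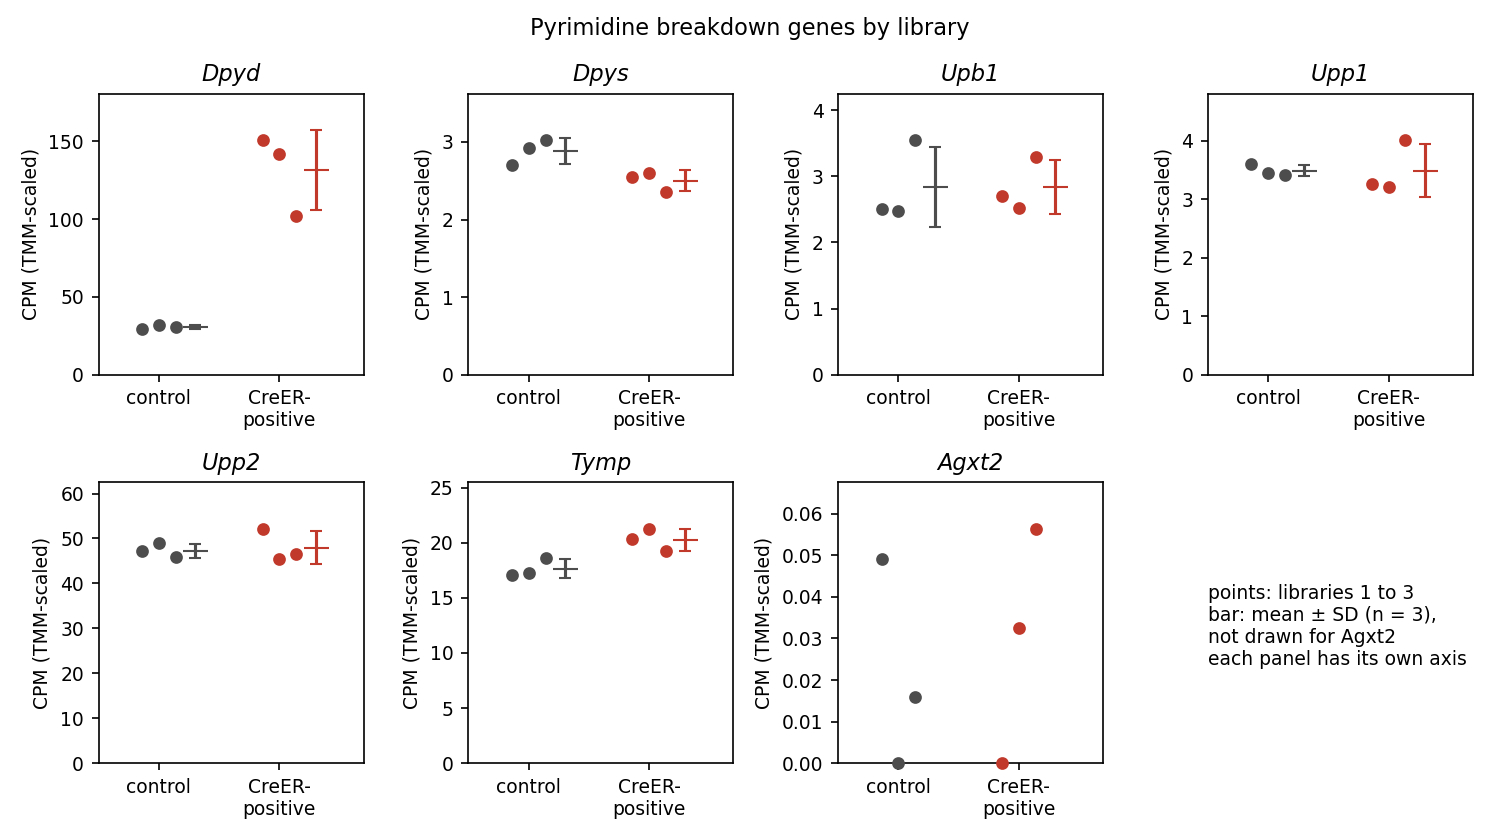
CPM of each of the 7 genes in the 3 control (grey) and 3 CreER-positive (red) libraries, in order of replicate; bars are mean ± SD, not drawn for Agxt2, and each panel has its own axis from 0. Dpyd separates by a wide gap (29.4 to 31.8 against 102 to 151 CPM), Tymp and Dpys by a narrow one, and the remaining genes overlap.

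Of the 6 tested genes, 1 (Dpyd, higher) was called by edgeR at an adjusted p of 0.05, against 0.726% of all 22043 tested genes in either direction and 0.177% in the higher direction. Control and CreER-positive values were fully separate for 3 of the 6 genes, Dpyd, Tymp and Dpys, as for 15.9% of all tested genes. Of these, Dpyd and Tymp were higher in CreER-positive animals (6.63% of tested genes) and Dpys was lower (9.31%). Since the genes were chosen with this comparison, nothing is read from these counts.

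The genes differ greatly in size, which matters for what a count holds. Dpyd spans 870816 bases on chromosome 3 (118562109 to 119432924, GRCm38.p6) and ranks 80 among 36528 listed genes by the width in the authors' tables, which for Dpyd is 100% of the span. Its longest transcript with a consensus coding sequence in GENCODE M21 has 23 exons and 4492 bases, and all annotated exons together cover 1.02% of the width. For Tymp (chromosome 15, 89371631 to 89377036) exons cover 39.9% of the width. Upp2 (chromosome 2, 58566317 to 58795846) lies 7.68 Mb from Scn9a and overlaps the receptor kinase gene Acvr1 by 512 bases; Acvr1 had 22.7 ± 0.623 CPM in controls and 22.6 ± 0.194 CPM in CreER-positive animals. Dpys (chromosome 15, 39768485 to 39857470) contains the low-count gene Gm16291, with 3 or 4 counts in every library. Upb1 lies on chromosome 10 (75406911 to 75441679), Upp1 on chromosome 11 (9118008 to 9136170) and Agxt2 on chromosome 15 (10358516 to 10410158), and no listed gene overlaps any of these 3.

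Per kilobase of width, in the deposited RPKM, Tymp had the highest level, with 3.53 ± 0.148 in controls and 4.01 ± 0.147 in CreER-positive animals (SD, n = 3). Upp2 (0.215 ± 0.00849 in controls) and Upp1 (0.197 ± 0.00592) followed, and over all 6 libraries their RPKM ranges, 0.201 to 0.229 and 0.177 to 0.228, overlapped. Upb1 had 0.0877 ± 0.0181 RPKM in controls. Dpyd, at 0.0346, 0.0377 and 0.0355 RPKM in controls, was next to Dpys at 0.0312, 0.0339 and 0.0345. In CreER-positive animals Dpyd had 0.172, 0.164 and 0.122 RPKM, above every value of Upb1 (0.0762 to 0.109) and below the lowest value of Upp1. The width includes introns, so these levels are per kilobase of gene body and not of mature transcript. Exons cover 1.02% of the width for Dpyd, 4.21% for Dpys, 10.8% for Upp1 and 20.5% for Upb1. The order per base of mature transcript may therefore differ.

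**Figure D2:**
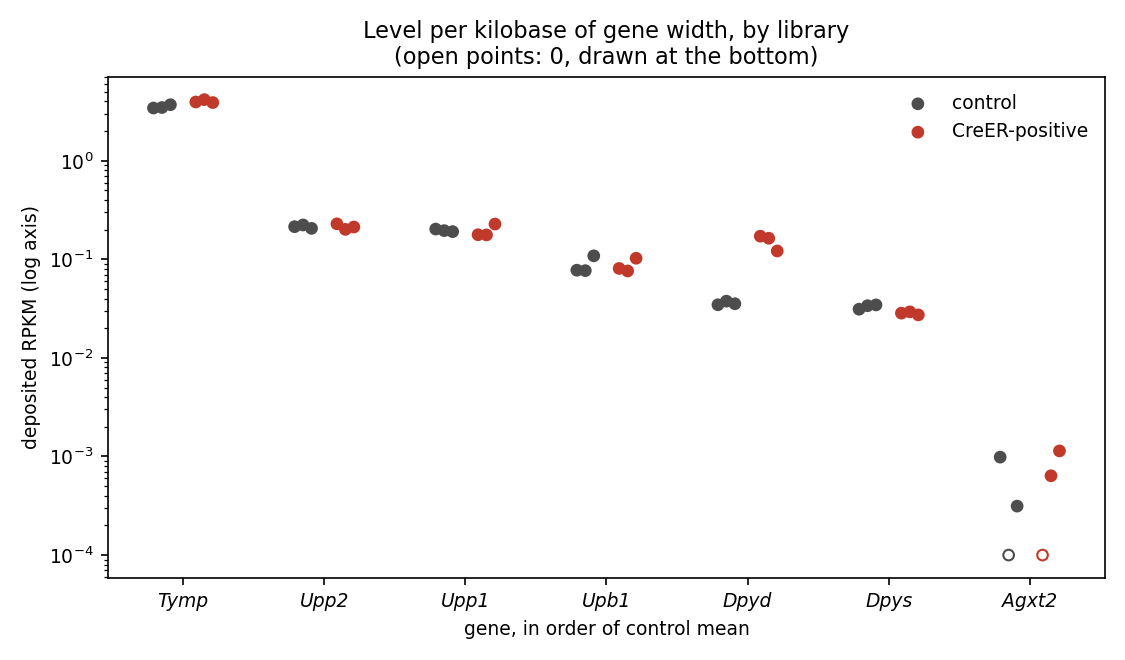
Deposited RPKM of the 7 genes in each library on a log axis, ordered by the control mean (grey: control, red: CreER-positive); open points are values of 0. Per kilobase of gene width, introns included, Dpyd moves from the level of Dpys in controls to between Upb1 and Upp1 in CreER-positive libraries. The order of the other genes' means is kept. This is not an order of mature transcript levels.

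Other genes of pyrimidine and nucleoside metabolism were nearly all uncalled, but so were nearly all tested genes. Over all tested genes, edgeR called 0.726%. Of 17 genes of pyrimidine synthesis none was called by edgeR, DESeq2 or limma-voom, and 2 had an unadjusted edgeR p under 0.05, against 10.5% of all tested genes. Over all genes with an adjusted p, DESeq2 called 2.18% and limma-voom 0.721%. The 2 genes were Nme2, a nucleoside diphosphate kinase gene (26.7 ± 1.95 to 30.9 ± 2.36 CPM, log2 fold change 0.21, edgeR adjusted p 0.353), and Cmpk2, a mitochondrial nucleotide kinase gene (-0.16, 0.448). The median log2 fold change of the list was 0.06, against 0.00 over all tested genes. Of 7 nucleoside transporter genes, 6 were tested and none was called by edgeR, DESeq2 or limma-voom. An unadjusted edgeR p under 0.05 was found for 2 of the 6, against 10.5% of all tested genes. They were Slc29a4, the monoamine and adenosine carrier (0.25, 0.363), and Slc29a2, an equilibrative nucleoside carrier (0.25, 0.434). The median of the transporter list was 0.08.

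Among 16 genes of pyrimidine salvage and nucleotidases, 1 was called lower, against 0.549% of all tested genes, and 0 higher. This was Nt5e, which encodes CD73, the cell-surface nucleotidase that releases adenosine and other nucleosides outside the cell. Nt5e fell from 89.1 ± 4.28 to 62.5 ± 3.11 CPM (SD, n = 3), a log2 fold change of -0.51 ± 0.06 with an edgeR adjusted p of 0.00465. All 3 CreER-positive values were below all controls, and the call held under all 13 alternatives, with adjusted p values from 1.34e-09 to 0.0409. The median of the list was -0.01. This list, too, was chosen with earlier results of these data known, so nothing is read from its share of calls. Cda, the cytidine deaminase gene that feeds uridine into the pathway, had 32.1 ± 2.41 CPM in controls and 36.5 ± 1.47 CPM in CreER-positive animals (0.18, 0.360). An unadjusted edgeR p under 0.05 was found for 3 of the 16, against 10.5% of all tested genes. They were Nt5e, Cda and Uckl1, which was lower (35.5 ± 0.562 to 32.4 ± 1.60 CPM, log2 fold change -0.13, edgeR adjusted p 0.448).

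Downstream of the pathway, 13 of 14 genes were tested from a list around the making, carriage, breakdown and sensing of beta-alanine. Of these, 1 was called lower and 0 higher, against 0.549% and 0.177% of all tested genes, with a list median of 0.01. The list was chosen with earlier results of these data known, so nothing is read from its share of calls. The called gene was Mrgprd, the beta-alanine receptor, at 139 ± 4.69 CPM in controls and 59.8 ± 4.65 CPM in CreER-positive animals (log2 fold change -1.22 ± 0.07, edgeR adjusted p 0.000273). It was lower in 3 of 3 CreER-positive animals than in any control and kept its call under all 13 alternatives. The summed sensory neuron markers overlapped between the groups (10461 to 12034 CPM in controls, 10176 to 13683 CPM in CreER-positive animals). Of the 11 markers 0 were called, against 0.726% of all tested genes. These markers are of sensory neurons in general, and the share of neurons that express Mrgprd was not tested. Abat (-0.11) and Aldh6a1 (0.03) are genes of beta-alanine and beta-aminoisobutyrate degradation. With the listed genes Hibch (0.01) and Hibadh (0.08), they had edgeR adjusted p values from 0.621 to 0.973. Carns1, which joins beta-alanine to histidine (-0.15, 0.435), and Csad, a decarboxylase gene of taurine synthesis (-0.18, 0.450), had the next smallest p values.

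The dihydropyrimidinase-like proteins, are relatives of Dpys known for roles in axon growth and guidance. None of the 5 was called by edgeR, DESeq2 or limma-voom, against 0.726%, 2.18% and 0.721% of all genes with an adjusted p. An unadjusted edgeR p under 0.05 was found for 1 of the 5, against 10.5% of all tested genes. It was Dpysl2 (193 ± 13.9 to 217 ± 7.15 CPM, log2 fold change 0.17, edgeR adjusted p 0.431). Dpysl3, Dpysl5 and Crmp1 had 0.13, 0.04 and 0.01, and Dpysl4 had -0.11. Of 14 genes of purine breakdown and phosphorolysis, 12 were tested. None was called by the same tools and 0 had an unadjusted p under 0.05; Ampd3, an AMP deaminase gene (0.10, 0.543), and Gda, the guanine deaminase gene (-0.19, 0.581), had the smallest. The medians of these lists were 0.04 and 0.03.

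**Figure D3:**
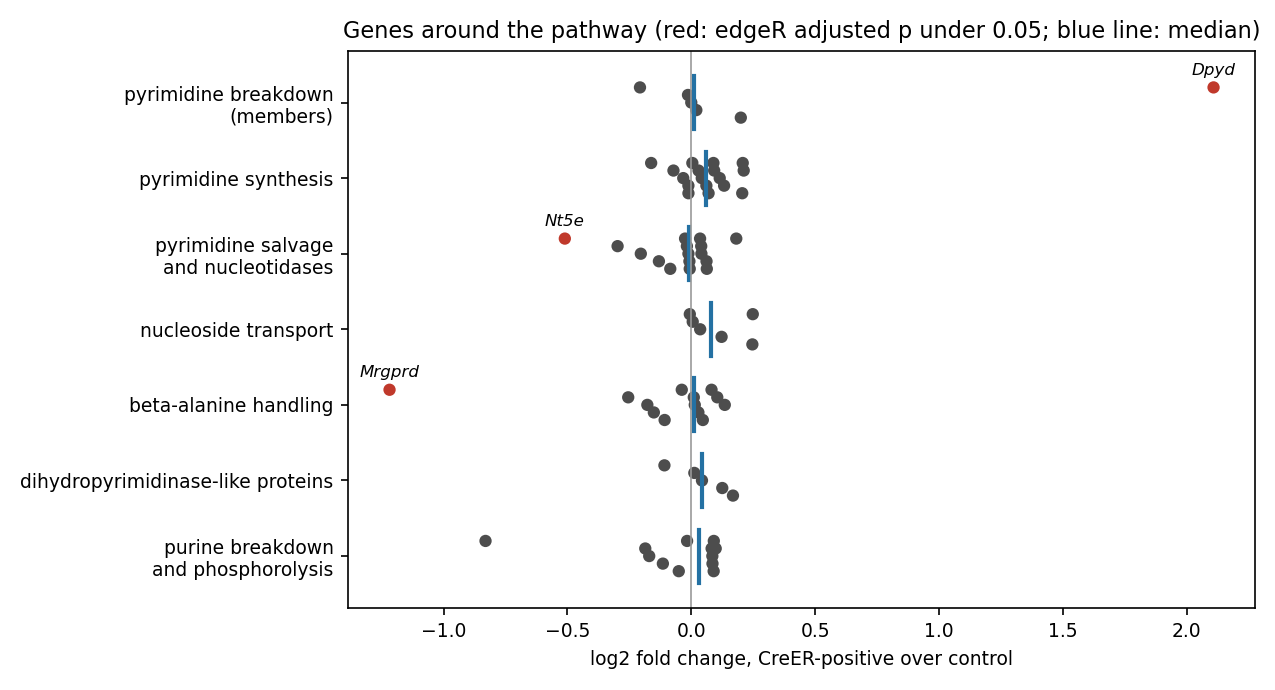
Log2 fold change (CreER-positive over control) of each tested gene, by list; red points passed an edgeR adjusted p of 0.05 and blue lines are list medians. Nt5e at -0.51 and Mrgprd at -1.22 are the called genes of the other lists. Dpyd, at 2.11, is also red, but it was chosen on this comparison, so its colour carries no test.

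No gene beside Dpyd on chromosome 3 was called by edgeR with all 6 libraries. No listed gene overlaps the Dpyd span, and GENCODE M21 places a single short unassigned transcript model, Gm43410, inside it. Within 2 Mb on either side, 28 genes are listed and 23 were tested. None was called by edgeR or limma-voom, against 0.726% and 0.721% of all tested genes. DESeq2 called 2 (against 2.18% of all genes it tested). An unadjusted edgeR p under 0.05 was found for 6 of the 23, against 10.5% of all tested genes. The median log2 fold change was -0.07. The largest positive estimate was 0.45 (Gm32148) and the largest negative one -0.50 (1700061I17Rik), both from genes of under 3 CPM.

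The nearest tested gene on each side was unlike Dpyd. Gm26871, a long non-coding RNA gene that ends 21.6 kb before Dpyd, had 4.86 ± 0.400 CPM in controls and 4.92 ± 0.967 CPM in CreER-positive animals (log2 fold change 0.02, edgeR adjusted p 0.981). Ptbp2, the neuronal splicing regulator gene 285.8 kb beyond the end of Dpyd, had 171 ± 3.22 and 171 ± 9.06 CPM (0.00, 0.993). The smallest p values were those of Plppr5, a lipid phosphatase-related gene (7.40 ± 0.464 to 5.56 ± 0.376 CPM, log2 fold change -0.41, adjusted p 0.118), and Palmd, which encodes palmdelphin (96.9 ± 6.69 to 118 ± 6.87 CPM, 0.28, 0.14). Both passed by DESeq2 (0.0430 and 0.0178), and Palmd passed by edgeR without CreER-positive replicate 3 (0.0491). Over the 13 alternatives the adjusted p ranged from 0.0430 to 0.506 for Plppr5 and from 0.0178 to 0.581 for Palmd.

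**Figure D4:**
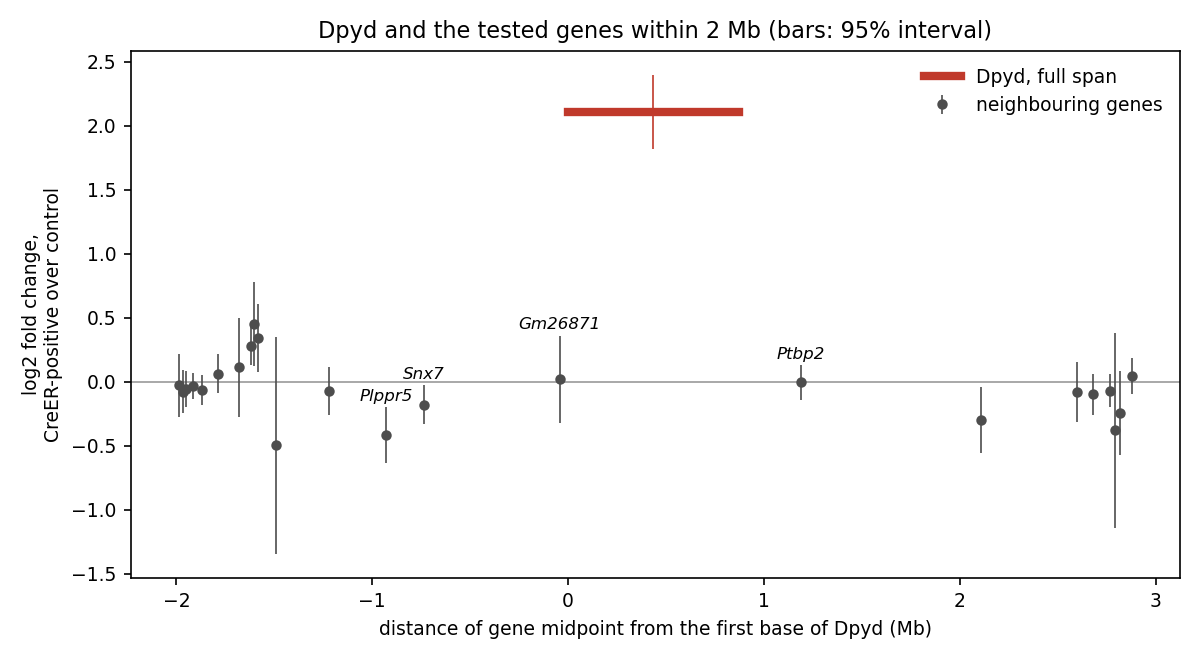
Log2 fold change of Dpyd (red bar, drawn over its full span) and of the 23 tested genes within 2 Mb (grey), against the distance of each gene's midpoint from the first base of Dpyd; vertical bars are 95% intervals. Dpyd stands at 2.11 and the neighbours lie between -0.50 and 0.45.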

How the data were processed

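Each of the 6 libraries is 1 table. Per the file headers, the authors deposited the raw count, the RPKM and the width of 36528 genes under NCBI identifiers. GSNAP and the builds GRCm38 and mm10 are named in the submitters' processing notes; how reads were assigned to genes and strands is not given in the sources used here. The deposited RPKM was used only to set levels of genes side by side. The width lies within 5% of the gene span for 77.7% of matched genes, so introns are part of it. Symbols and positions came from the GRCm38.p6 RefSeq table (31049 identifiers matched; the others held 1.91% of counts).

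Counts were filtered with filterByExpr (22043 genes left), scaled with TMM and tested with edgeR 4.0.16 (quasi-likelihood, group alone, Benjamini-Hochberg over all tested genes, R 4.3.3). A standard error is the log2 fold change divided by the square root of F. The common biological coefficient of variation was 8.99%. On counts simulated for 22043 genes, edgeR found 76% of changes with a fold of 1.5 and 98% with a fold of 2, and 15 of 198 calls were false. The changes were placed only in genes with a mean above 1 CPM, so recovery at lower levels was not tested.

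The 7 genes, 6 pathway lists and 11 marker lists were chosen with earlier results of these data known. Named genes are the 7, every called list gene or else the 2 with the smallest unadjusted p, the nearest tested neighbours of Dpyd, and the 5 genes that correlate best with it (log2 of CPM + 0.5). Cda, Uckl1, Abat, Aldh6a1, Hibch, Hibadh, the other Dpysl genes, the genes overlapping the 7, Gm32148 and 1700061I17Rik were named after their values were seen. Alternatives were other scalings (DESeq2 size factors, total counts), other filters (none, 1 CPM in 3 libraries), DESeq2 1.42.0, limma-voom (limma 3.58.1), leaving out each library, and leaving out control replicate 2 with CreER-positive replicate 3.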

Additional observations from a re-analysis of the deposited data

How the results depend on the processing

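The log2 fold change of Dpyd stayed between 2.01 and 2.29 over 13 alternatives (2.01 to 2.26 on leaving out 1 library). The count of called genes over all tested, 160, was 254 with no count filter and 425 by DESeq2, and ranged from 60 to 549 on leaving out 1 library; the lowest was without control replicate 2 and the highest without CreER-positive replicate 3, and 69 and 76 were called without control replicate 1 or 3. The neighbours of Dpyd, with 0 calls, had 2 by DESeq2 (Palmd higher and Plppr5 lower, against 2.18% of genes called by DESeq2) and 0 to 1 on leaving out 1 library (Palmd, without CreER-positive replicate 3). Within 1 Mb, 0 were called. The number of calls in each of the 6 pathway lists was the same under all 13 alternatives. No paired analysis was possible because the labels give the animals no shared replicate number. With 3 animals a group, depth limits the low-count genes: Agxt2 cannot be compared.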
